A study of Mus musculus with 8 samples.

Results

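The genes described here are 36 mouse genes of epithelial cell junctions, cell polarity and the keratin cytoskeleton. They were chosen by name, with earlier results of these data known. Every transcript cluster of the array that carries one of these symbols was taken, alone or with another symbol, which gave 41 clusters of the 41345 in the table. All 36 genes were found. Both Esrp2 clusters were kept, although one also carries the symbol 1810019D21Rik, and Cdh1, Cdh2, Dsg2 and Krt18 have more than 1 cluster as well.

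Expression was measured in AML12 cells, a hepatocyte line from mice with a transgene for human TGF-alpha, on Affymetrix MoGene 2.0 ST arrays. In one group of 4 arrays the cells stably expressed Zfp125, a zinc finger protein, and in the other, also of 4, they carried the empty vector (EV). G418 selection and control medium were common to both groups. The labels do not say whether a group is 1 clone, a pool or several selected lines, nor whether its arrays are separate cultures, so the spread behind each p-value is that of these arrays alone and may be technical. Zfp125 itself is not analysed here, so the group labels were not checked against it.

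Hepatocytes are polarised epithelial cells. Tight junctions, built from claudins, occludin and their cytoplasmic scaffolds, seal the bile canaliculus from the blood side. Adherens junctions hold neighbouring cells together through cadherins bound to catenins, desmosomes anchor keratin filaments at the membrane, and gap junctions of connexins pass ions and small molecules between cells. Krt8 and Krt18 encode the keratin pair of the hepatocyte, and loss of E-cadherin and keratins with gain of vimentin is the hallmark of a shift towards a mesenchymal state.

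No cluster of the 36 genes passed the test between Zfp125 and empty vector cells. By limma, with p-values adjusted over all 41345 clusters and calls made at an adjusted p under 0.05, 0 of 41 clusters were higher and 0 were lower, with adjusted p-values from 0.216 to 0.982. Of all clusters, 0.148% were called, 0.0242% as higher (10) and 0.123% as lower (51), so a count of 0 among 41 is near the background. With 1 cluster per gene the share over all genes was 1.08%, and the count among the 36 was still 0. At an unadjusted p under 0.05 there were 4 of 41 clusters, 9.76%, beside 9.43% of all clusters. Of the 41, 34 lay above the median level of the table, and among these the share was 11.8%, beside 12.1% of all clusters above that level. The 4 were both clusters of Cdh1, 1 of Dsg2 and 1 of Esrp2.

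The intervals were narrow enough to bound the differences in array value. For all 41 clusters they bound the array signal only, not the RNA. The 7 member clusters below the median level of the table may not stand above background. Changes are given as Zfp125 minus empty vector on the log2 scale, where 1 is a 2-fold difference, with limma's standard error or 95% interval. All 41 intervals, each taken on its own cluster, lay within a 1.5-fold difference in either direction. Their lowest bound was -0.49, for Esrp2, and their highest was 0.55, for Cldn7. The estimates ran from -0.28 to 0.29, 24 above 0 and 17 below. Their median size without regard to sign was 0.12, against 0.11 over all clusters, and their median was 0.06, against -0.00095. The missing calls do not show that the groups were alike.

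**Figure D1:**
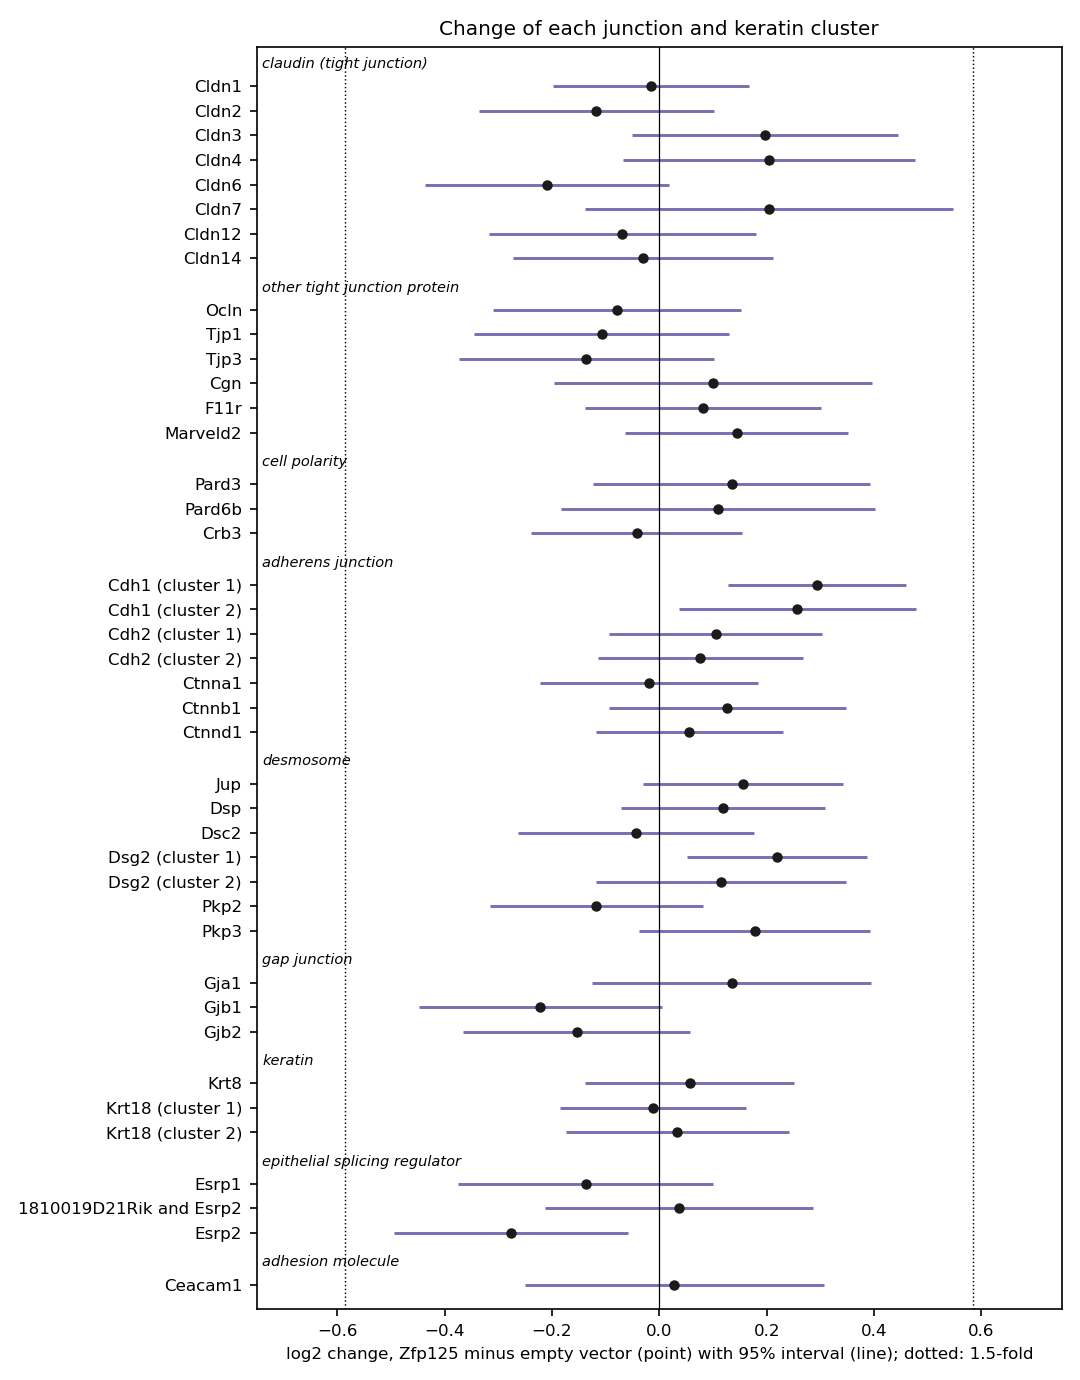
Log2 change of each of the 41 clusters (point) with its 95% interval (line), grouped by class, with dotted lines at a 1.5-fold difference and clusters of 1 gene numbered. All intervals lie between the dotted lines, and those of both Cdh1 clusters, the first Dsg2 cluster and the cluster of Esrp2 alone do not reach 0.

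In 5 of 41 clusters (12.2%) the 4 arrays of one group all lay beyond the 4 of the other, against 6.23% of all clusters. That background is not matched for level, and 34 of the 41 lay above the median level. Both Cdh1 clusters and 1 of Dsg2 were on the higher side in Zfp125 cells, where the background is 3.2%. Cldn6 and 1 cluster of Esrp2 were on the lower side, where it is 3.03%. In the remaining clusters the groups overlapped.

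**Figure D2:**
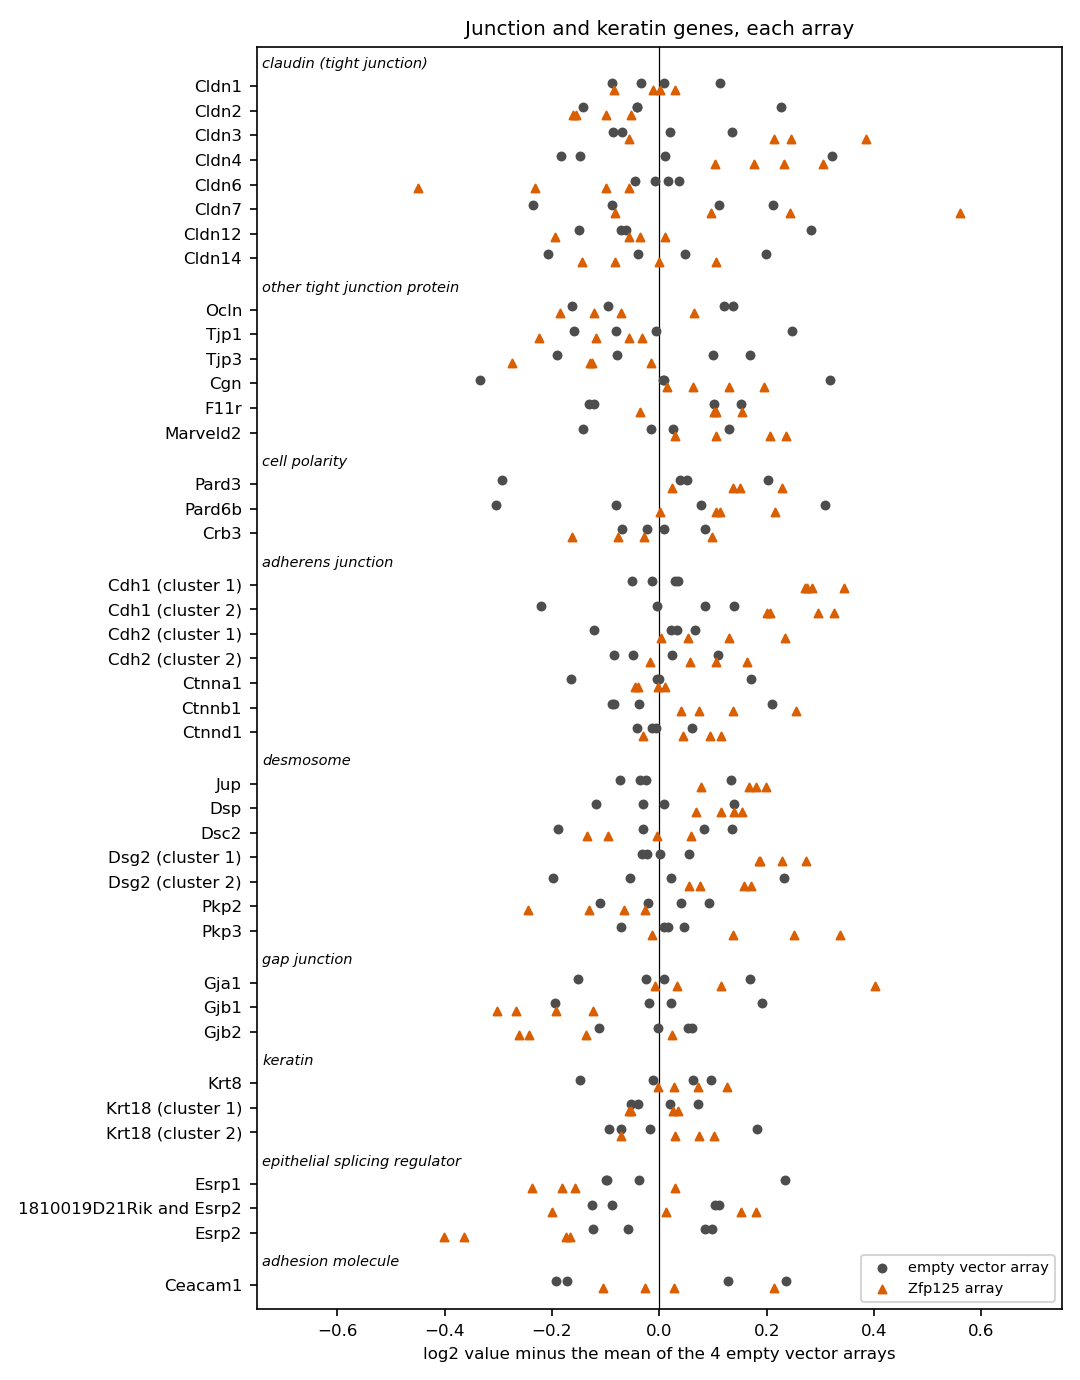
Log2 value of each array minus the mean of the 4 empty vector arrays, for the 41 clusters by class; circles are empty vector arrays and triangles Zfp125 arrays. The groups overlap in all but 5 clusters, and the triangles stand together to the right of the circles for both Cdh1 clusters.

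Among the claudins, the strand-forming membrane proteins of the tight junction, 0 of 8 passed the test, with estimates from -0.21 to 0.20. Cldn3, a sealing claudin of liver and other epithelia, had values of 5.61, 5.70, 5.60 and 5.82 in empty vector cells and 6.07, 5.93, 5.90 and 5.63 in Zfp125 cells. The groups overlapped through 1 Zfp125 array, and the change was 0.20 ± 0.11 (adjusted p = 0.634). Cldn4 had values of 4.36, 4.52, 4.83 and 4.32 against 4.74, 4.61, 4.81 and 4.68, a change of 0.20 ± 0.12 (adjusted p = 0.66). For Cldn7 the values were 4.58, 4.13, 4.28 and 4.47 against 4.46, 4.28, 4.92 and 4.61, a change of 0.20 ± 0.15 (adjusted p = 0.744). The groups overlapped in both genes, and for Cldn4 1 empty vector array lay above all 4 Zfp125 arrays.

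Cldn6, a claudin of embryonic epithelia, was the member of this family whose groups did not overlap. Its values were 3.27, 3.25, 3.29 and 3.21 in empty vector cells and 3.16, 2.81, 3.02 and 3.20 in Zfp125 cells, a change of -0.21 ± 0.10 (adjusted p = 0.573). The nearest arrays of the groups differed by little, and the cluster was dim. With Cldn1, Cldn14, Dsc2, Gja1, Gjb2 and Esrp1 it made up the 7 member clusters whose mean was below the median level of the table, 4.34. No detection call was available, so whether these 7, or members just above that level, stand above background is not known.

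Cldn2, which forms paracellular channels for cations, had values of 5.35, 5.08, 5.08 and 4.98 against 4.96, 4.97, 5.02 and 5.07, a change of -0.12 ± 0.10. Cldn1, which is required for the epidermal barrier and is also a liver claudin, had means of 3.79 ± 0.09 (SD, n = 4) and 3.77 ± 0.05. Cldn12 and Cldn14 had changes of -0.07 ± 0.11 and -0.03 ± 0.11. The groups overlapped in all 4.

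Of the 6 other tight junction proteins, 0 passed the test. Tjp1 encodes the scaffold ZO-1, which ties claudins to actin; its values were 8.48, 8.08, 8.23 and 8.15 in empty vector cells and 8.01, 8.18, 8.12 and 8.20 in Zfp125 cells, a change of -0.11 ± 0.11 (adjusted p = 0.82). Ocln, which encodes occludin, had values of 4.78, 4.79, 4.56 and 4.49 against 4.72, 4.58, 4.47 and 4.53, a change of -0.08 ± 0.10. In both genes the Zfp125 values lay mostly within the range of the empty vector values. Estimates for the scaffold Tjp3, the adaptor cingulin (Cgn), the adhesion molecule F11r (JAM-A) and tricellulin (Marveld2), which seals corners between 3 cells, ran from -0.14 to 0.14, with overlapping groups.

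The polarity genes Pard3 and Pard6b, which encode subunits of the PAR complex that sets the apical border, had changes of 0.14 ± 0.11 and 0.11 ± 0.13. Crb3, the Crumbs protein of the apical membrane, had a change of -0.04 ± 0.09. The groups overlapped for all 3 genes.

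E-cadherin, encoded by Cdh1, is the main cadherin of epithelial adherens junctions, and its brighter cluster (17505148) had the smallest p of all 41. The values were 8.67, 8.60, 8.68 and 8.63 in empty vector cells and 8.93, 8.99, 8.92 and 8.92 in Zfp125 cells. The 4 Zfp125 arrays lay above all empty vector arrays, with a spread within each group far under the gap between them (means of 8.65 ± 0.04 and 8.94 ± 0.03, SD, n = 4). The change was 0.29 ± 0.07, a 1.23-fold higher level, with a 95% interval of 0.13 to 0.46. It did not pass after adjustment over all clusters (adjusted p = 0.216). Over 18 alternative settings the adjusted p was 0.0551 to 0.466.

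The dimmer Cdh1 cluster (17512677) gave a like estimate, though whether both clusters read the same RNA was not checked. Its values were 6.45, 6.54, 6.60 and 6.24 in empty vector cells and 6.66, 6.78, 6.66 and 6.75 in Zfp125 cells, again with no overlap. The change was 0.26 ± 0.10 (adjusted p = 0.443).

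N-cadherin, encoded by Cdh2, is carried by hepatocytes beside E-cadherin. The brighter of its clusters had values of 8.12, 7.93, 8.09 and 8.07 against 8.06, 8.10, 8.18 and 8.29, which overlapped, and the changes of its clusters were 0.10 ± 0.09 and 0.08 ± 0.08. The catenins, partners of cadherins at the junction, also overlapped between the groups. Ctnna1 (alpha-catenin) had a change of -0.02 ± 0.09, and Ctnnd1 (p120-catenin, which stabilises cadherins at the membrane) had one of 0.06 ± 0.08. Ctnnb1, which encodes beta-catenin, the catenin that also carries Wnt signals, had values of 9.56, 9.31, 9.26 and 9.26 against 9.39, 9.42, 9.60 and 9.49. Its change was 0.13 ± 0.10, and the first empty vector array lay apart from the other 3.

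**Figure D3:**
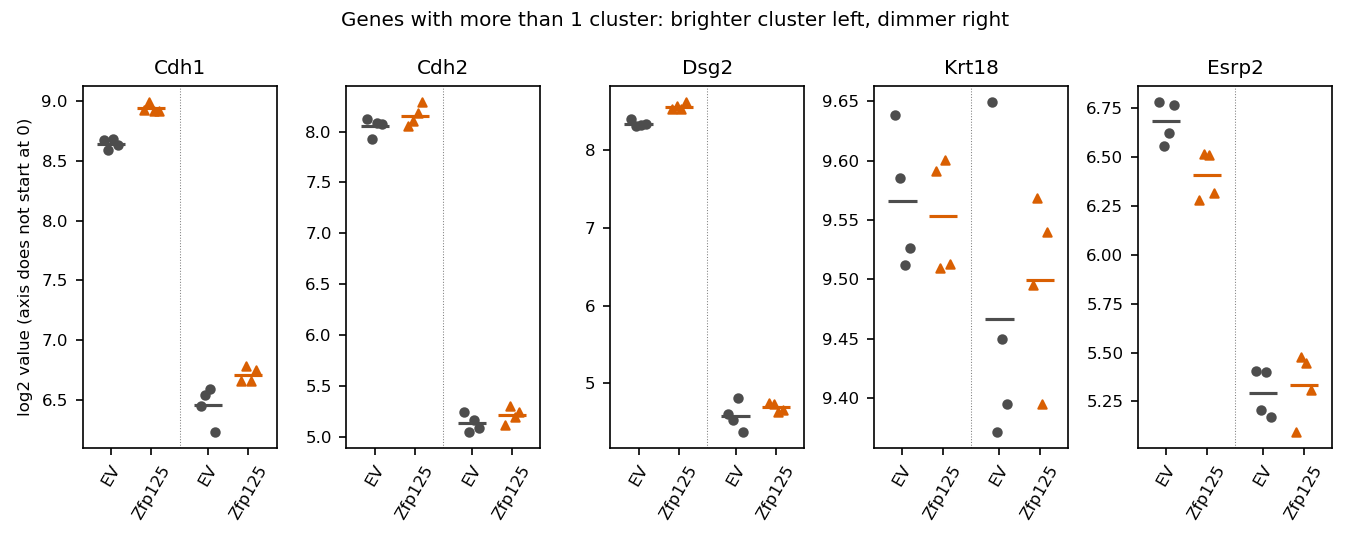
Log2 value of each array for the 5 genes with more than 1 cluster; in each panel the brighter cluster is left of the dotted line and the dimmer right, circles are empty vector (EV) arrays, triangles Zfp125 arrays and bars group means, and each panel has its own axis. In both Cdh1 clusters every Zfp125 array lies above every empty vector array; for Esrp2 the left cluster carries its symbol alone and the right one carries 1810019D21Rik as well.

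Of the 6 desmosome genes, 0 passed the test. Dsg2, the desmosomal cadherin of simple epithelia, had values of 8.39, 8.31, 8.32 and 8.34 in empty vector cells and 8.53, 8.57, 8.53 and 8.61 in Zfp125 cells in its brighter cluster. The groups did not overlap, and the change was 0.22 ± 0.07 (adjusted p = 0.38). The other Dsg2 cluster had means of 4.58 ± 0.18 and 4.69 ± 0.06, with overlap and a change of 0.11 ± 0.10.

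The plaque proteins of the desmosome gave small and mixed estimates. Plakoglobin (Jup), which serves desmosomes and adherens junctions, had values of 8.12, 8.33, 8.17 and 8.16 against 8.40, 8.38, 8.28 and 8.37, a change of 0.16 ± 0.08 (adjusted p = 0.615). One empty vector array reached into the Zfp125 range. Desmoplakin (Dsp), which binds the keratin filaments, had a change of 0.12 ± 0.08. The plakophilins had changes of -0.12 ± 0.09 for Pkp2 and 0.18 ± 0.10 for Pkp3, and the desmocollin Dsc2, which was dim, one of -0.04 ± 0.10.

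Of the gap junction genes, likewise 0 of 3 passed the test. Gjb1 encodes the main connexin of hepatocytes; its values were 6.68, 6.51, 6.72 and 6.89 in empty vector cells and 6.58, 6.51, 6.43 and 6.40 in Zfp125 cells. The groups overlapped at their edges, and the change was -0.22 ± 0.10 with an interval of -0.45 to 0.0042 (adjusted p = 0.54). Gjb2, its partner in hepatocyte gap junctions, had values of 4.05, 4.23, 4.22 and 4.16 against 4.19, 4.03, 3.90 and 3.92. The change was -0.15 ± 0.09 (adjusted p = 0.669), and 1 Zfp125 array lay within the empty vector range. Gja1, a connexin of many other cell types, had a change of 0.13 ± 0.12, with means of 3.98 ± 0.13 and 4.12 ± 0.18.

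Keratins 8 and 18, which pair to form the hepatocyte filament, gave the smallest estimates of any class measured by more than 1 cluster. Krt8 had values of 9.63, 9.66, 9.55 and 9.42 in empty vector cells and 9.64, 9.56, 9.69 and 9.59 in Zfp125 cells, a change of 0.06 ± 0.09 with an interval of -0.14 to 0.25. For Krt18 the values were 9.64, 9.59, 9.51 and 9.53 against 9.59, 9.51, 9.60 and 9.51 in cluster 17315245, a change of -0.01 ± 0.08, and its other cluster had a change of 0.03 ± 0.09. The arrays of the groups were interleaved in all 3 clusters.

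The splicing regulators Esrp1 and Esrp2 direct the epithelial isoforms of their target mRNAs. The cluster with the Esrp2 symbol alone (17512634) had values of 6.78, 6.56, 6.63 and 6.77 in empty vector cells and 6.28, 6.52, 6.51 and 6.32 in Zfp125 cells. The groups did not overlap, though their nearest arrays were close, and the change was -0.28 ± 0.10 with an interval of -0.49 to -0.06 (adjusted p = 0.394). The cluster shared with 1810019D21Rik had a change of 0.04 ± 0.11 and overlapping groups. The estimates of the clusters that carry the Esrp2 symbol thus differ in sign. Their intervals overlap (-0.21 to 0.29 for the shared cluster), and the difference between the clusters was not tested. The signal of the shared cluster cannot be assigned to Esrp2 alone. Esrp1 was dim, with means of 3.16 ± 0.16 and 3.02 ± 0.12. Ceacam1, an adhesion molecule of the canalicular membrane that takes part in insulin clearance, had values of 7.39, 7.37, 7.69 and 7.80 against 7.54, 7.46, 7.59 and 7.78, a change of 0.03 ± 0.12.

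Promoter windows for 27 of the 36 genes were found by symbol in a RefSeq table of build GRCm38.p6, which gives 250 bases before and 50 after each transcript start. They were searched on both strands for CAGGTG, the E-box form bound by the SNAI and ZEB repressors, which are known to act on junction genes. A match was present in 21 of 42 member windows (50%) and in 20.2% of all 32851 windows. In protein-coding genes the share was 19.7% (22.1% in windows with 55 to 65% G and C, where 12 of 18 member windows had one). These shares were not tested. Cdh1, Cdh2, Ctnna1, Dsc2, Dsg2, Pkp2, Pkp3, Esrp1 and Esrp2 had no window in the table. The windows below are shown because they hold the motif in both keratin genes, a claudin and the member with the most matches. Each is the 250 bases before the start, read 5′ to 3′ on the gene's strand, with the motif, on either strand, in capitals. Krt8 is chr15:102004343-102004592 on the minus strand, Krt18 chr15:102027966-102028215 on the plus strand, Cldn4 chr5:134946935-134947184 on the minus strand and Crb3 chr17:57061951-57062200 on the plus strand.
Krt8: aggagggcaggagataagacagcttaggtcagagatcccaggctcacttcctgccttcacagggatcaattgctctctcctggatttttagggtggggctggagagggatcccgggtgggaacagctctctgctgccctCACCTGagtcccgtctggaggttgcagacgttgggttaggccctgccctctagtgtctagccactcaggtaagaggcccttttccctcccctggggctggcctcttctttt
Krt18: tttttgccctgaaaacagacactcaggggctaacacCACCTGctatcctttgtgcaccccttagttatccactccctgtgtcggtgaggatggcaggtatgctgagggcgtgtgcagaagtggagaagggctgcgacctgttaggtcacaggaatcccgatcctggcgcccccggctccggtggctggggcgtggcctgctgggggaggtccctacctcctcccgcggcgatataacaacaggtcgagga
Cldn4: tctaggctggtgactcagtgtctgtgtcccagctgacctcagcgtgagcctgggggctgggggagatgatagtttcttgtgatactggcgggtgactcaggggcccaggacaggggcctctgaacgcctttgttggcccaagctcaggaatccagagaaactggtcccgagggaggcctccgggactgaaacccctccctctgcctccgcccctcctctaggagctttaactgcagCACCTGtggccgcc
Crb3: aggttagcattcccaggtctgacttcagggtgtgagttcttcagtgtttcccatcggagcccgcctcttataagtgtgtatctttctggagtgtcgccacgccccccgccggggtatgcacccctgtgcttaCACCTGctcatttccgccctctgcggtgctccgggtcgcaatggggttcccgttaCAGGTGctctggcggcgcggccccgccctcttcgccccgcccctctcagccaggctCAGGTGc
The stretch of Crb3 holds 3 matches, which begin 118, 63 and 7 bases before the start, and the Cldn4 match begins 14 bases before it. A match describes the letters only; none of these 4 genes had a change that passed the test.

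Related genes outside the 36 were counted from lists of other tight junction, polarity, adherens junction, desmosome, gap junction, keratin and Ceacam genes and of epithelial and mesenchymal regulators. Of the 170 measured genes in the 9 lists, on 179 clusters, 1 rose and 0 fell, beside 0.148% of all clusters called. At an unadjusted p under 0.05 there were 25 of 179 (13.97%), beside 9.43% of all clusters and 12.1% of those above the median level. The 1 that rose was Foxa1, a pioneer transcription factor of liver, with values of 5.90, 5.74, 5.69 and 5.55 in empty vector cells and 6.52, 6.81, 6.64 and 6.37 in Zfp125 cells. All Zfp125 arrays lay above all empty vector arrays. Its change was 0.86 ± 0.12 (adjusted p = 0.0364), and the call ended in 7 of 8 omissions of 1 array (all but that of Zfp125 replicate 4), without variance moderation (adjusted p = 0.124) and with the replicate number as a block (adjusted p = 0.117), within a range of 0.00179 to 0.124 over the alternatives. Hnf4a, the nuclear receptor that directs hepatocyte genes, was named after its values were seen. It had values of 8.70, 8.62, 8.70 and 8.84 against 8.34, 8.32, 8.31 and 8.38, a change of -0.38 ± 0.08 that did not pass (adjusted p = 0.14). Its groups did not overlap, and it passed in 2 of 18 alternatives (range 0.0388 to 0.347).

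**Figure D4:**
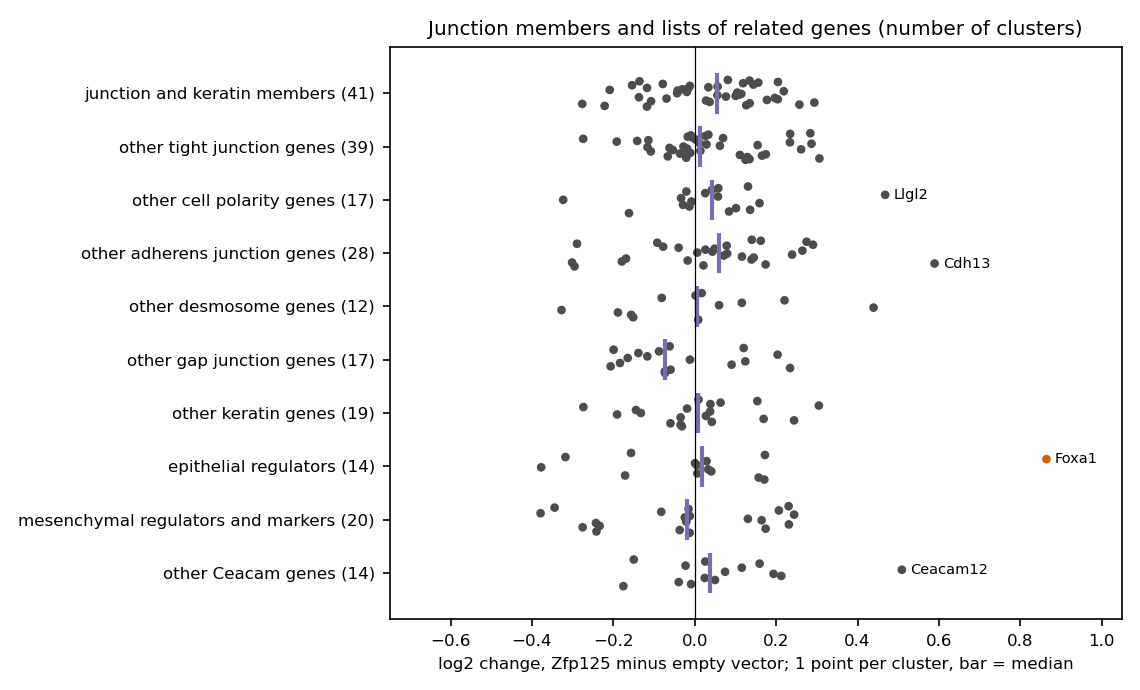
Log2 change of every cluster of the 36 genes and of the 9 lists of related genes, 1 point per cluster, with a bar at each median and the number of clusters in parentheses. Foxa1, in orange, is the 1 cluster called; Cdh13, Llgl2 and Ceacam12 stand to the right of their lists without passing the test over all clusters.

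In the adherens junction list, of 27 measured genes 0 passed the test, and the median was 0.06. The genes with the smallest p were Cdh13 (T-cadherin, which is anchored by a lipid and binds adiponectin) and Cdh6 (K-cadherin). Cdh13 had values of 4.71, 4.34, 4.63 and 4.62 against 5.06, 5.28, 5.07 and 5.23, with no overlap and a change of 0.59 ± 0.11 (adjusted p = 0.0914). With 1 cluster per gene, which cuts the features tested from 41345 to 22180 and refits the variance moderation, it passed (adjusted p = 0.0145). It passed in 3 of 18 alternatives in all (range 0.0145 to 0.303). Cdh6 was at 9.19, 9.05, 9.13 and 9.02 against 9.27, 9.34, 9.48 and 9.45, without overlap, and its change was 0.29 ± 0.09 (adjusted p = 0.309).

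Of 16 polarity genes 0 passed the test. Llgl2, a basolateral determinant opposed to the PAR complex, had values of 6.70, 6.58, 6.66 and 6.87 against 7.18, 7.14, 7.25 and 7.11. The groups did not overlap, and the change was 0.47 ± 0.09 (adjusted p = 0.107). It passed with 1 cluster per gene (adjusted p = 0.0274) and in 4 of 18 alternatives in all (range 0.0274 to 0.313). Dlg1, a scaffold of the same basolateral group, had a change of -0.32 ± 0.11 (adjusted p = 0.38), with groups that did not overlap.

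In the other tight junction list 0 of 36 measured genes passed the test, and the median was 0.01. Igsf5 (JAM4) had a change of -0.27 ± 0.08 and the scaffold Magi1 one of 0.26 ± 0.09, both without overlap. Of 12 desmosome genes 0 passed, with the plaque protein periplakin (Ppl) at 0.22 ± 0.08 and Dsg1a at 0.44 ± 0.16, where the groups overlapped. Of 16 gap junction genes 0 passed, with Gjc3 at 0.23 ± 0.11 and Gjb5 at -0.21 ± 0.10. Neither the 18 other keratin genes nor the 14 other Ceacam genes held a call. In these the smallest p belonged to Krt23 and Krt13 (0.31 ± 0.14 and -0.27 ± 0.14) and to Ceacam12 and Ceacam9 (0.51 ± 0.11 and -0.15 ± 0.11). Ceacam12, which was dim with means of 3.10 and 3.61, passed with 1 cluster per gene (adjusted p = 0.0352) and in 2 of 17 alternatives in all (range 0.0352 to 0.317).

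In the mesenchymal list 0 of 18 measured genes passed the test, and the median was -0.02. Vimentin (Vim), an intermediate filament protein of mesenchymal cells, was bright on both of its clusters, with means of 10.67 ± 0.13 and 10.64 ± 0.03 (SD, n = 4) on one and 10.13 ± 0.10 and 10.12 ± 0.08 on the other. The groups overlapped on both, and the changes were -0.02 ± 0.09 and -0.01 ± 0.09, with signs that turned on leaving out single arrays. Fibronectin (Fn1) had values of 11.65, 11.56, 11.66 and 11.74 in empty vector cells and 11.27, 11.33, 11.32 and 11.30 in Zfp125 cells. The groups did not overlap, and the change was -0.34 ± 0.08 (adjusted p = 0.164). It passed with a trended, robust prior (adjusted p = 0.0229), the 1 alternative of 18 in which it did (range 0.0229 to 0.396). Mmp2, a matrix metalloproteinase, had a change of -0.28 ± 0.10. Snai2 and Zeb1, which encode repressors of the kind that bind the E-box above and were named after their values were seen, had changes of -0.38 ± 0.14 and 0.24 ± 0.09 (adjusted p = 0.431 and 0.43).

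Markers of cell types were read as a check of the label. Their lists were chosen with earlier results of these data known, so the counts below only describe them. All 10 hepatocyte markers lay above the median level of the table, and 2 of 10, Tat and Fgb, fell, beside 0.123% of all clusters called lower. The call of Tat, a tyrosine-degrading enzyme (-1.46 ± 0.18, adjusted p = 0.021, range 0.000576 to 0.133), ended in 6 of 8 omissions of 1 array, all but EV replicate 2 and Zfp125 replicate 4. That of Fgb, a fibrinogen chain (-1.21 ± 0.17, adjusted p = 0.0376, range 0.00122 to 0.15), ended in 7 of 8, all but Zfp125 replicate 4. Both calls also ended without variance moderation (adjusted p = 0.133 and 0.15) and with the replicate block (adjusted p = 0.111 and 0.0655). With 1 cluster per gene Alb, Serpina1c and Apoa1 also passed as lower (adjusted p = 0.0178, 0.0191 and 0.0492), beside 1.08% of all genes called. Ttr, Apob, Serpina1a and Cps1 did not pass there, and Trf, whose cluster also carries Srprb, was not in that setting. With a mean per gene Apoa1 did not pass (adjusted p = 0.0517). The mean log2 value of the 10 on an array was 9.49 to 9.82 in empty vector cells and 9.02 to 9.32 in Zfp125 cells. Of 6 cholangiocyte markers 4 were above the median level, Krt19 and Sox9 among them, and Epcam and Cftr were below it. The list means were 6.06 to 6.18 and 5.99 to 6.19. Fibroblast, endothelial and leukocyte lists had array means of 4.04 to 4.22, 4.31 to 4.38 and 4.73 to 4.95 in empty vector cells and 4.04 to 4.19, 4.16 to 4.38 and 4.74 to 4.80 in Zfp125 cells, with no marker of these lists called. At an unadjusted p under 0.05 there were 7 of 10 hepatocyte clusters, all lower, and 2 of 6 cholangiocyte clusters, Sox9 at 0.28 ± 0.09 and Aqp1 at -0.22 ± 0.09 (adjusted p = 0.315 and 0.509). There were 1 of 10 fibroblast, 0 of 6 endothelial and 1 of 7 leukocyte clusters, beside 9.43% of all clusters. In bulk RNA, fewer cells of a type and less RNA per cell cannot be told apart. The part of the lower hepatocyte markers in the junction values was not tested.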

How the data were processed

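The deposited values are log2 expression values, 1 per transcript cluster and array, with array medians of 4.32 to 4.37; the log2 unit was read from the values. Per the submitters' processing notes, the tools were Affymetrix Expression Console and Transcriptome Analysis Console. Tool versions and the method of normalization were not given in the sources used here, and the arrays were used as deposited. Correlations between arrays were 0.977 to 0.984. The number of arrays limits the precision.

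Clusters were named through the platform annotation (23521 with 1 symbol, 1814 with several, 16010 unnamed here), updated by Entrez identifier to GRCm38.p6 RefSeq symbols. Linear models were fitted to all 41345 clusters with limma 3.58.1 (lmFit, eBayes) in R 4.3.3, two-sided, with Benjamini-Hochberg adjustment; the code was tested on simulated data. Clusters of a gene were kept apart. They were matched by gene symbol, and whether they read the same RNA or strand was not checked. All members are named, and of each further list the called genes, else the 2 with the smallest p. Members and lists were chosen with earlier results of these data known. Snai2, Zeb1, Hnf4a and Vim were added after their values were seen. Alternatives covered normalization, filters, moderation, weights, 1 cluster per gene, the replicate block and leaving out each array. Plots used matplotlib 3.10.9.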

Additional observations from a re-analysis of the deposited data

Results flagged for a closer look

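Of 130 groups of 4 arrays checked, 2 held an array apart from the other 3 by Dixon's ratio of its gap to the group's range; chance gives about 1 in 20. For Ctnnb1 the first empty vector array, at 9.56, lay above the other 3, at 9.26 to 9.31 (ratio 0.832). For Magi1 the second Zfp125 array, at 7.12, lay above the other 3, at 6.88 to 6.90 (ratio 0.895).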

How the results depend on the processing

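The count of 0 of 41 member clusters held in all 18 alternatives; with dim clusters left out below the median level it was 0 of 34, and with 1 cluster or a mean per gene 0 of 36. The smallest adjusted p of a member was 0.0551, for Cdh1 without variance moderation. The count of all clusters called, 61, moved more: 232 above the median level, 94 above the 25th percentile, 4 without moderation, 196 with a trended, robust prior, 240 with 1 brightest cluster per gene, 227 with means per gene, and 16 (without Zfp125 replicate 1) to 61 (without Zfp125 replicate 4) on omitting single arrays. The filters and the settings per gene test fewer features and also refit the variance moderation. Above the median level, 2794 of 20672 clusters had an unadjusted p under 0.05 in the refit, against 2491 in the main fit (limma). The cause of these moves was not tested. The replicate block gave 0 of 41345 clusters (3530 at an unadjusted p under 0.05, limma). Deviations of same-numbered arrays correlated at -0.04 to 0.03, so no large effect shared by number was seen. Such a check cannot show whether same-numbered arrays were prepared together, and the labels do not say. Of 1150 single values under an alternative, 23 changed sign, 22 of them on leaving out 1 array, none of a called gene. Leaving out 1 array gave -0.011 to 0.12 for the shared Esrp2 cluster, -0.036 to 0.11 for Ceacam1, -0.011 to 0.21 for Cgn, -0.045 to 0.022 for Cldn1, -0.12 to 0.025 for Cldn12, -0.099 to 0.036 for Cldn14, -0.074 to 0.038 for Ctnna1, -0.11 to 0.0018 for Dsc2, -0.030 to 0.012 for Krt18 (17315245) and -0.075 to 0.013 and -0.041 to 0.035 for the clusters of Vim. With a mean of its clusters Krt18 was at 0.011, against -0.012.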
